A study of Rattus norvegicus with 15 samples.

Results

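The comparison described here is alfacalcidol against vehicle in the aorta of uremic rats. Its members were chosen by label: the 3 arrays of NX rats given alfacalcidol and the 3 arrays of NX rats given vehicle, 6 of the 15 arrays of the study, compared over all 15739 features of the deposited value table. NX rats had 5/6 of their kidney tissue removed, and both groups share this surgery, so the surgery does not separate them. All rats were Sprague Dawley. Alfacalcidol was injected intraperitoneally at 0.04 µg/kg, 3 times a week for 12 days, and the vehicle group was injected on the same schedule. The other 9 arrays, 3 each, came from untreated sham rats, from NX rats given VS-105 at 0.01 µg/kg and from NX rats given 0.08 µg/kg of paricalcitol, and they entered the fit to estimate the spread. Each array carried aortic RNA pooled from 2 rats, so a pair of animals is the unit behind every value. The labels give neither the sex of the rats nor the hour at which the aortas were taken. The part of either in the differences, those of clock genes included, was not tested.

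Alfacalcidol is a vitamin D analogue that the liver hydroxylates to calcitriol, the natural ligand of the vitamin D receptor, a nuclear receptor that binds DNA together with a retinoid X receptor. It is given in kidney failure, where the kidney makes too little calcitriol, to lower parathyroid hormone. The vessel wall also holds a circadian clock. In it BMAL1, paired with CLOCK or NPAS2, drives the genes for the PER and CRY proteins, the REV-ERB receptors (Nr1d1, Nr1d2) and the transcription factors DBP and TEF; PER and CRY inhibit BMAL1, and the REV-ERBs repress the Bmal1 and Nfil3 genes.

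At an adjusted p under 0.05 (limma, Benjamini-Hochberg over all features) 7 features passed, which is 0.0445% of those tested. Ciart, Per2, Wee1 and Ifrd2 rose (4 features, 0.0254%), and Bmal1, Mest and the feature LOC498276 fell (3 features, 0.0191%). Of the 6 with a gene name, 4 belong to the circadian clock or its output: Bmal1 was 6.04-fold lower, Ciart 13.8-fold higher, Per2 3.45-fold higher and Wee1 2.61-fold higher.

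The promoters of the 3 core clock genes that passed are shown because each holds a clock motif in the window from 250 bases before to 50 after the start of the gene (RefSeq, build GRCr8). The Bmal1 promoter lies at chr1:176766078-176766377 on the plus strand, that of Per2 at chr9:99496944-99497243 on the minus strand and that of Ciart at chr2:186112197-186112496 on the minus strand. Capitals mark an E-box (CACGTG), an E′-box (CACGTT), a D-box (TTATGNAA) or a ROR and REV-ERB element (TNGGTCA), searched on both strands.
Bmal1: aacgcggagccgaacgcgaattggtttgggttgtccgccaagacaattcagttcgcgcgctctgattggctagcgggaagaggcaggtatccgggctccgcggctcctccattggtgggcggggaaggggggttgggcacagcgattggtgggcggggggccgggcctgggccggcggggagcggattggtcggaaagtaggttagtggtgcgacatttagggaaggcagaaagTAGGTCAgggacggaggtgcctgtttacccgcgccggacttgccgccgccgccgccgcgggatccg
Per2: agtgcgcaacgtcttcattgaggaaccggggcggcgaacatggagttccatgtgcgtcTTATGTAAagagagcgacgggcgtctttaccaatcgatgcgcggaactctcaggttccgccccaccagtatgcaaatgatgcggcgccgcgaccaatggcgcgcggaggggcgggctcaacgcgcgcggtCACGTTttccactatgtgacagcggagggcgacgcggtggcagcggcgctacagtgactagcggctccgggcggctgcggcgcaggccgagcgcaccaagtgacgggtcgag
Ciart: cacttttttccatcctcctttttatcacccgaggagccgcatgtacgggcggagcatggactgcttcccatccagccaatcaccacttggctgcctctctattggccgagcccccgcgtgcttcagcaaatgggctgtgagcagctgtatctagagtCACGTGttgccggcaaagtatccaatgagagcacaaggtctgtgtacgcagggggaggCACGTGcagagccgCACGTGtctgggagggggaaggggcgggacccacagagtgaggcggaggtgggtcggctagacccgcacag

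The Bmal1 window held 1 match to the ROR and REV-ERB element, with its first base 16 bases before the start. Forms of an element that depart from the letters given above were not searched. The Per2 window held a D-box at 192 and an E′-box at 62 bases before the start. The Ciart window held 3 E-boxes, at 93, 35 and 21 bases before the start. Over all 33469 promoters of the table, an E-box occurred in 6.42%, an E′-box in 4.83%, a ROR and REV-ERB element in 11.14% and a D-box in 3.66%. A promoter was listed for 29 of the 36 called, core clock and clock output genes. These 29 genes had 33 promoters, and a gene was counted if any of its promoters held the motif. The counts are thus per gene and the shares per promoter. Among the 29, 5 genes held an E-box (Ciart, Bhlhe40, Bhlhe41, Nr1d1 and Tef), 4 an E′-box, 3 a ROR and REV-ERB element and 1 a D-box. A cAMP response element (TGACGTCA, 1.83% of all promoters) and a direct repeat spaced by 3, the type bound by the vitamin D receptor (0.82%), occurred in 0 of the 29. These matches describe the letters of the windows only.

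Before the further results, the vehicle arrays need describing, since they did not look alike. Of 27 genes of intestinal epithelium 18 were measured, and their mean log2 signal was -1.70, 0.39 and 2.81 on vehicle arrays 1, 2 and 3, against -0.89, -0.94 and -1.66 on the alfacalcidol arrays. Lgals4, a gut lectin, read -2.85, 0.28 and 3.43 on the vehicle arrays and between -3.93 and -2.17 under alfacalcidol. Vehicle arrays 2 and 3 thus carried gut transcripts that vehicle array 1 and the alfacalcidol arrays did not carry at that level. The mean of 13 white adipocyte genes was 6.50, 3.61 and 3.89 on the vehicle arrays and 5.29, 5.49 and 3.70 on the alfacalcidol arrays, so vehicle array 1 read high and alfacalcidol array 3 low for fat. Aortic smooth muscle was well represented on all 6 arrays, with Acta2 between 8.71 and 9.46 and Myh11 between 9.00 and 9.69. The part of gut and fat transcripts in the results below was not tested. Values with vehicle array 1 as the only vehicle array (without vehicle arrays 2 and 3) are given below for many of the named genes and lists that they moved by more than 1.5 times. For the white adipocyte list the median difference was 0.22 with all arrays, -1.73 with vehicle array 1 alone and 1.12 without it.

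**Figure D1:**
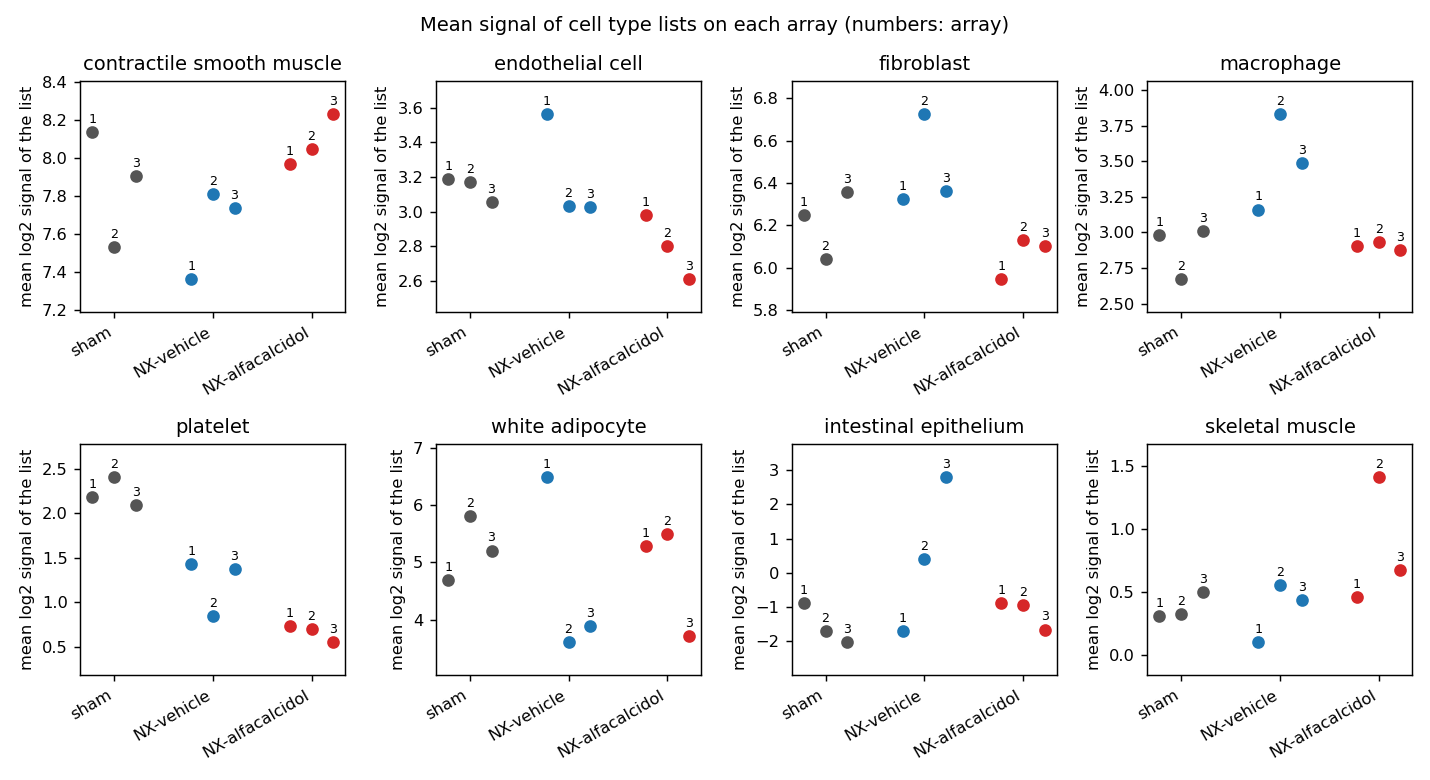
Mean log2 signal (vertical axis) of the measured genes of 8 cell type lists on each sham, NX-vehicle and NX-alfacalcidol array, with the array number above each point. Intestinal genes averaged 2.81 on vehicle array 3 and -0.89 or less on every alfacalcidol array, while macrophage genes averaged 3.16 to 3.83 on the vehicle arrays and 2.88 to 2.93 on the alfacalcidol arrays.

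The 2 groups also differed slightly as a whole. Array medians were 2.39, 2.52 and 2.37 with vehicle and 2.60, 2.59 and 2.59 with alfacalcidol, the median difference of all features was 0.20 (log2), and 77.1% of features had a difference above 0. Differences of gene groups are therefore read against 0.20. The alfacalcidol arrays all lay above all vehicle arrays for 17.8% of features and all below for 5.66%. After array medians were subtracted the median difference was 0.04, and 14 features passed as higher (0.0890%) and 138 as lower (0.877%), among them all 7 named above. Several list medians just above 0 then lay below it; among these, that of the vitamin D list was -0.055, that of vascular calcification -0.024, that of heat shock genes -0.050 and that of the fibrillar matrix list -0.11. The counts of 0 passed given for lists below hold for the values as deposited: with medians subtracted 3 macrophage genes, 2 each of the complement, chemokine and TGF-β lists and 1 each of 8 other lists, immediate early and fibroblast genes among them, passed as lower, while 1 glucocorticoid-induced, 1 heat shock and 3 clock output genes (Wee1 among them) passed as higher.

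**Figure D2:**
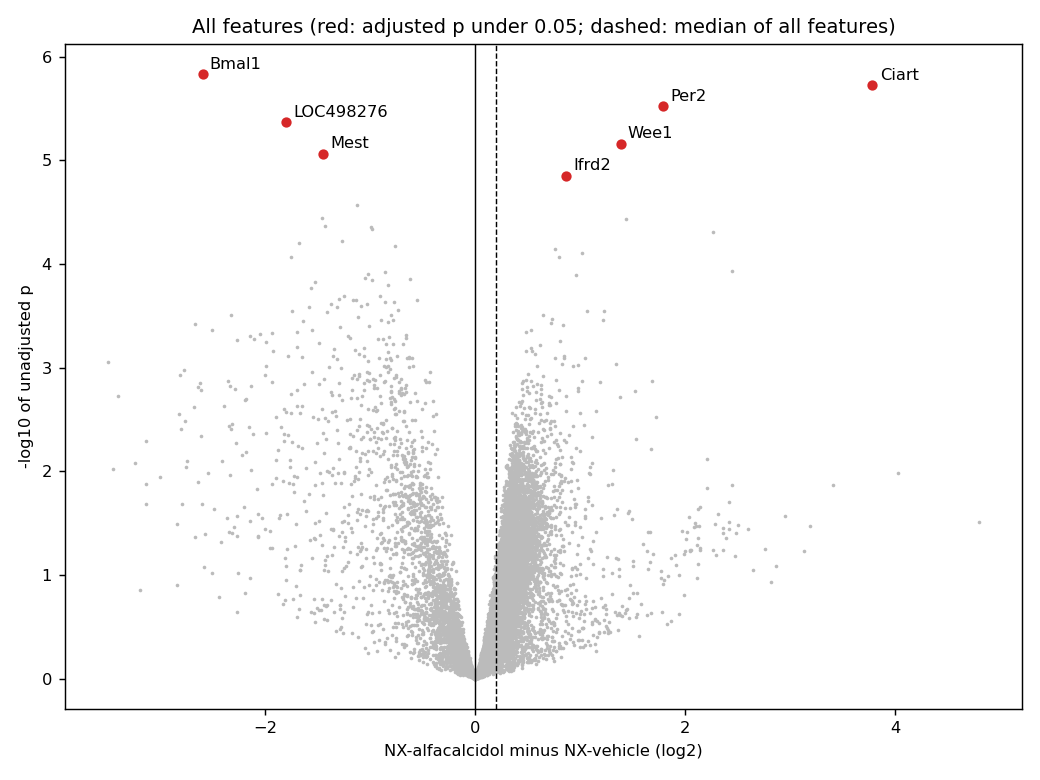
Each point is 1 of the 15739 features: the difference of group means (horizontal axis, log2, alfacalcidol minus vehicle) against minus log10 of the unadjusted limma p (vertical axis). The 7 features at an adjusted p under 0.05 are red and named, and the dashed line marks the median difference of 0.20.

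Bmal1 (listed as Arntl), the activating subunit, read 1.22, 2.40 and 2.23 on the vehicle arrays and -0.62, -0.94 and -0.38 on the alfacalcidol arrays. Every alfacalcidol array lay below every vehicle array. It fell by 2.59 ± 0.31 (SE; adjusted p = 0.0148). Its level was 2.37 ± 0.42 (SD, n = 3) in sham and 1.97 ± 0.24 under paricalcitol, both beside the vehicle level of 1.95 ± 0.64, and 0.20 ± 0.31 under VS-105.

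Ciart (listed as RGD1566380), which inhibits BMAL1 and CLOCK, read -1.28, -1.61 and -3.44 with vehicle and 1.53, 2.13 and 1.37 with alfacalcidol. Vehicle array 3 lay near the lower end of the signal range, and all 3 alfacalcidol arrays lay above all others. It rose by 3.78 ± 0.46 (adjusted p = 0.0148), and its level was -3.30 ± 0.48 in sham, -1.08 ± 0.10 under paricalcitol and 0.74 ± 0.39 under VS-105.

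Per2, a repressor of the clock's activating pair, read 1.54, 2.46 and 1.56 with vehicle and 3.77, 3.57 and 3.58 with alfacalcidol. The alfacalcidol arrays were close to each other, and the groups did not overlap. It rose by 1.79 ± 0.23 (adjusted p = 0.0157), from a level of 1.85 ± 0.53, with sham at 1.06 ± 0.02, paricalcitol at 2.21 ± 0.28 and VS-105 at 3.01 ± 0.21.

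Wee1 encodes a kinase that holds cells before mitosis and is a known target of the clock. It read 2.54, 2.97 and 2.35 with vehicle and 4.34, 3.74 and 3.93 with alfacalcidol. It rose by 1.38 ± 0.19 (adjusted p = 0.0217), while its level under paricalcitol, 2.61 ± 0.19, lay at the vehicle level of 2.62 ± 0.32.

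Outside the clock, Mest, an imprinted gene of the hydrolase family, read 4.08, 3.92 and 3.85 with vehicle and 2.35, 2.81 and 2.35 with alfacalcidol. It fell by 1.45 ± 0.20 (adjusted p = 0.0225) and was the 1 called gene of 11 imprinted genes measured. Its level in sham, 3.49 ± 0.43, was nearer to vehicle, and under VS-105, 2.65 ± 0.11, nearer to alfacalcidol.

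Ifrd2 read 2.60, 2.42 and 2.29 with vehicle and 3.33, 3.27 and 3.31 with alfacalcidol, and rose by 0.87 ± 0.13 (adjusted p = 0.0314). This was the smallest difference among the 7, on arrays that varied little, with an SD of 0.03 under alfacalcidol. LOC498276, for which the tables used here give no gene name, had a level of 3.30 ± 0.39 with vehicle and 1.50 ± 0.09 with alfacalcidol. It fell by 1.80 ± 0.23 (adjusted p = 0.0167), and its sham, paricalcitol and VS-105 levels were 2.77 ± 0.32, 3.13 ± 0.25 and 2.71 ± 0.36, so the alfacalcidol arrays were the lowest of the study.

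**Figure D3:**
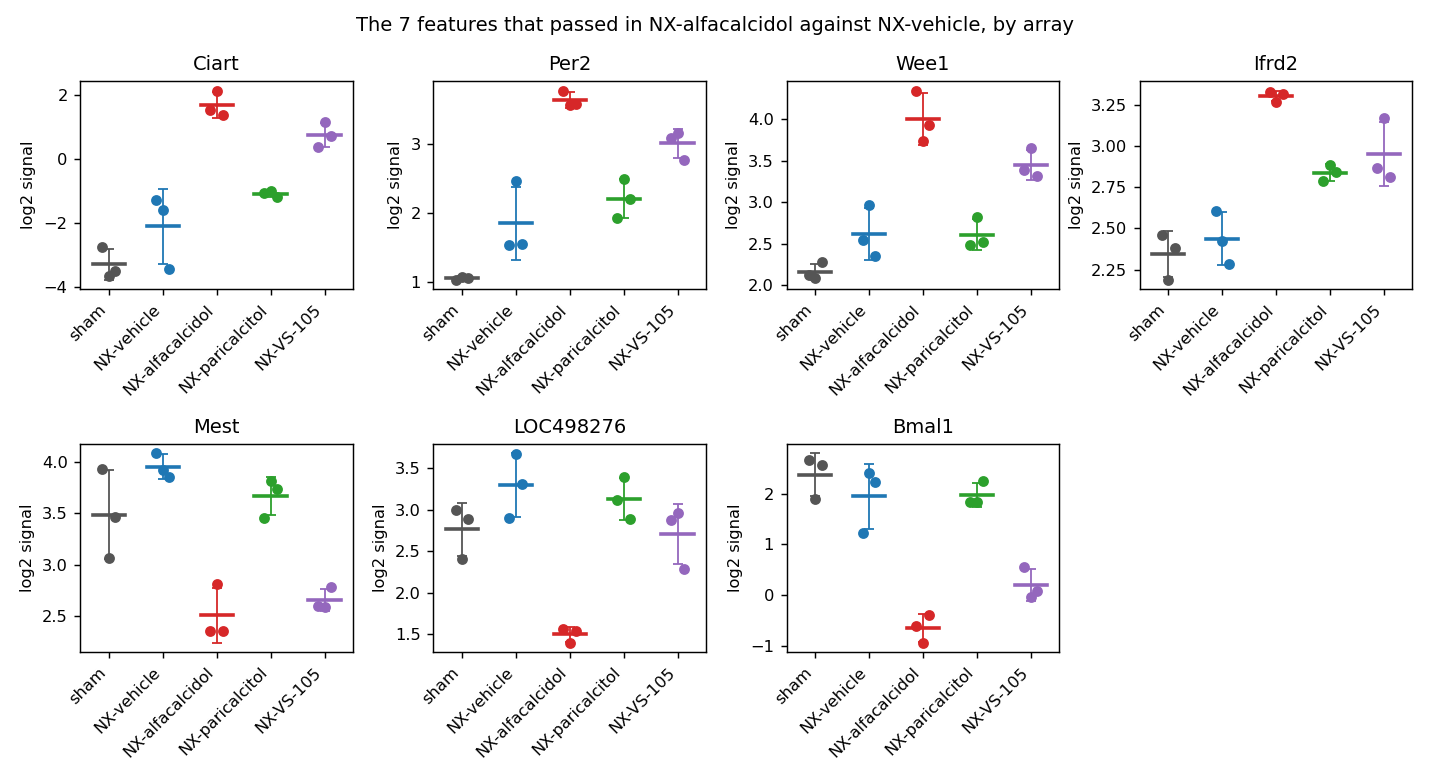
Log2 signal (vertical axes) of the 7 features that passed, on all 15 arrays. Points are arrays, wide bars group means and thin bars the SD over 3 arrays. Sham and vehicle lie together for Bmal1, at means of 2.37 and 1.95, and the alfacalcidol arrays are the lowest, while the alfacalcidol mean of 3.64 for Per2 is the highest of the 5 groups.

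With vehicle array 1 as the only vehicle array, 6 features passed, of which Ciart and Per2 were among the 7. Without vehicle arrays 2 and 3 the difference was 2.95 for Ciart (adjusted p = 0.0477), 2.10 for Per2 (adjusted p = 0.0217), -1.86 for Bmal1 (adjusted p = 0.156) and 1.46 for Wee1 (adjusted p = 0.0871). Mest was then at -1.58, Ifrd2 at 0.70 and LOC498276 at -1.40, each with an adjusted p of 0.156. All 7 kept their direction. With single arrays left out the count ran from 0, without alfacalcidol array 2 or 3, to 35, without paricalcitol array 3. Against sham, where 275 features (1.75%) passed, the alfacalcidol group differed in the same direction for each of the 7, with adjusted p from 0.000702 for Ciart and Per2 to 0.0338 for Mest.

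Of the 19 core clock genes, all measured, 2 rose and 1 fell. The groups did not overlap for 11 of them, with alfacalcidol higher in 8 (42.1%, against 17.8% of all features) and lower in 3 (15.8%, against 5.66%). The 3 lower ones were the activators: beside Bmal1, its partners Npas2, at -0.78 (adjusted p = 0.183), and Clock, at -0.44 (adjusted p = 0.244), neither of which passed. Npas2 read 2.80, 3.45 and 3.36 with vehicle and 2.29, 2.28 and 2.71 with alfacalcidol, and its difference was -0.37 with vehicle array 1 alone.

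Among the repressors, Cry1 was at 1.06 (adjusted p = 0.0939), with -0.24, -0.23 and -0.34 against 1.01, 1.09 and 0.27. Bhlhe41 (DEC2), which competes for E-boxes, was at 1.68 (adjusted p = 0.125), and Bhlhe40 (DEC1) at 0.70 (adjusted p = 0.243). The REV-ERB genes Nr1d2 and Nr1d1 were at 0.93 (adjusted p = 0.119) and 0.85 (adjusted p = 0.179). Per3 was at 0.45 (adjusted p = 0.236) and Per1 at 0.15 (adjusted p = 0.578), below the median of all features. The groups overlapped for Per1, with vehicle array 1 at 0.09 above all alfacalcidol arrays, which lay between -0.13 and -0.07. With that vehicle array alone Bhlhe41 was at 0.87, Per3 at 0.031 and Per1 at -0.18.

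Among 13 of 14 clock output genes that were measured, Wee1 passed. Tef, a D-box activator, had the next smallest p: 4.11, 4.43 and 3.50 with vehicle, 5.38, 5.58 and 5.39 with alfacalcidol, a difference of 1.44 ± 0.23 (adjusted p = 0.0549). Dbp, the other D-box activator, read 6.53, 5.93 and 5.12 against 8.08, 8.64 and 8.19, a difference of 2.44 (adjusted p = 0.0794). Nfil3, which represses at D-boxes, was lower, with 2.94, 1.45 and 3.40 against 1.07, -0.13 and 0.04, a difference of -2.27 (adjusted p = 0.105). The groups did not overlap for any of these 3. The list median was 0.34, but -0.082 with vehicle array 1 alone and 0.79 without it. The group levels of Dbp were 4.59 in sham, 5.86 with vehicle, 6.65 under paricalcitol, 8.30 under alfacalcidol and 7.58 under VS-105.

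In the gene groups below, a count of 0 passed is followed by the members that reached an unadjusted limma p under 0.05, a threshold that 13.3% of all features reached as higher and 4.91% as lower. Of 15 measured genes known to be induced by glucocorticoids, some of which also cycle over the day, 0 passed (unadjusted: 5 higher, 0 lower), and for 5 the alfacalcidol arrays all lay above the vehicle arrays (33.3%, against 17.8%). Klf9, a Krüppel-like factor, read 5.13, 5.46 and 5.01 against 6.32, 6.04 and 6.28, a difference of 1.02 (adjusted p = 0.064). Zbtb16 (PLZF), a zinc finger repressor, was at 1.52 (adjusted p = 0.127), Fkbp5, a chaperone of the glucocorticoid receptor, at 1.35 (adjusted p = 0.24) and Nfkbia, an inhibitor of NF-κB, at 0.53 (adjusted p = 0.242). Vehicle array 2 was the highest vehicle array for these 4 genes, and for Fkbp5 its 4.24 lay just under the lowest alfacalcidol array, 4.25. The list median was 0.21, near the 0.20 of all features, and 0.36 with vehicle array 1 alone. Of the 15 differences 4 were below 0, the lowest at -0.86. Fkbp5 and Tsc22d3, for which the groups did not overlap, are on the clock output list as well. In bulk tissue, here and below, fewer cells of a type and less RNA per cell cannot be told apart.

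In the vitamin D pathway itself 0 genes passed (unadjusted: 3 higher, 1 lower). Of 16 listed genes 11 were measured, and their median difference was 0.11. Vdr, the receptor, read 0.38, 0.51 and 0.89 with vehicle and -0.76, -0.50 and -0.96 with alfacalcidol, a difference of -1.34 (adjusted p = 0.146). The groups did not overlap, but the sham arrays, from -0.19 to 1.26, spanned much of the gap. Rxrb, a retinoid X receptor, was at 0.32 (adjusted p = 0.239), Ncor1, a corepressor, at 0.33 (adjusted p = 0.239), and Cyp27b1, the enzyme that makes calcitriol, at 0.34 (adjusted p = 0.256) and at 0.21 with vehicle array 1 alone. The list median was then -0.0094, and 0.27 without that array.

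Of 18 genes of calcium and phosphate handling 10 were measured and 0 passed (unadjusted: 2 higher, 1 lower). Slc20a2 (PiT-2), a phosphate importer, was at 0.74 (adjusted p = 0.211), Slc8a1, the sodium-calcium exchanger, at 0.38 (adjusted p = 0.257) and Stc1, a secreted regulator of both ions, at -0.69 (adjusted p = 0.257). Pth1r, the parathyroid hormone receptor, was at 0.26 (adjusted p = 0.382). Of 15 genes of vascular calcification 0 passed (unadjusted: 0 higher, 1 lower), with a median of 0.14. The lower one was Bmp4, at -0.66 (adjusted p = 0.127) on groups that did not overlap, and at -0.41 with vehicle array 1 alone. Mgp, an inhibitor of calcification, was at 0.52 (adjusted p = 0.325), and Spp1 (osteopontin) at 0.69 (adjusted p = 0.591), on vehicle arrays that ranged from 5.97 to 9.23. Against vehicle array 1 alone Slc20a2 was at 1.12, Slc8a1 at 0.60, Mgp at 1.21 and Spp1 at 2.41. The median of the calcium and phosphate list was 0.24, and 0.60 against that array, while that of the calcification list was 0.025 without it.

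Vdr shared its arrangement of arrays with most of the genes that had the largest negative differences. By the naming rule these were Elovl3, Cryga, Or8b52, Bmal1, Hs6st3, Ace3, Lhx6, Nfil3, Cyp11b2 and Kcng3. Lhx6, a homeobox factor, read 3.00, 3.05 and 3.34 with vehicle and 0.87, 1.21 and 0.46 with alfacalcidol, a difference of -2.29 (adjusted p = 0.127). Cryga, a lens crystallin, was at -2.77 (adjusted p = 0.125), Kcng3, a silent potassium channel subunit, at -2.18 (adjusted p = 0.132) and Elovl3, a fatty acid elongase, at -2.82 (adjusted p = 0.149). For Cryga, Lhx6, Kcng3, Hs6st3, Elovl3, Ace3, Or8b52, Cyp11b2 and Vdr, sham array 1 read below both other sham arrays and paricalcitol array 3 above both other paricalcitol arrays, and all VS-105 arrays were below all vehicle arrays.

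The largest positive differences by the same rule were those of Ciart, Dbp, Per2, Rasd2, Bhlhe41, Tor3a, Zbtb16, Tef, Wee1 and Kcng1, of which 6 are on the clock lists. Rasd2 (Rhes), a small GTP-binding protein, read 1.65, 2.12 and 2.05 with vehicle and 3.93, 4.02 and 3.05 with alfacalcidol, a difference of 1.72 (adjusted p = 0.155). Its level was also high under paricalcitol, from 3.19 to 4.05, and sham was between 0.66 and 2.43. Tor3a was at 1.68 (adjusted p = 0.189) and Kcng1 at 1.31 (adjusted p = 0.212). With vehicle array 1 alone they were at 2.93, where Tor3a passed (adjusted p = 0.0477), and at 1.99.

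Of 18 macrophage genes measured 0 passed (unadjusted: 1 higher, 11 lower). The alfacalcidol arrays were all below the vehicle arrays for 11 (61.1%, against 5.66% of all features), with a median difference of -0.64. Adgre1 (F4/80), the defining macrophage receptor, read 1.29, 1.87 and 1.45 against 0.59, 0.12 and 0.61, a difference of -1.10 (adjusted p = 0.112). Cd74, the invariant chain of class II antigen presentation, was at -1.01 (adjusted p = 0.125), Cd68, a lysosomal marker, at -0.81 (adjusted p = 0.132) and C1qc, a complement subunit made by macrophages, at -0.87 (adjusted p = 0.162).

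The mean of the macrophage list was 3.16, 3.83 and 3.49 on the vehicle arrays, 2.90, 2.93 and 2.88 on the alfacalcidol arrays and 2.98, 2.67 and 3.01 in sham. The alfacalcidol arrays thus lay within the sham range, and vehicle array 1 was the nearest of the vehicle arrays. Without vehicle arrays 2 and 3 the list median was -0.27, against -0.83 without vehicle array 1.

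Of 22 complement and coagulation genes the alfacalcidol arrays were all lower for 11 (50%, against 5.66% of all features). The median was -0.64, and 0 passed (unadjusted: 0 higher, 10 lower). C1qa, C1qb and C1qc, for which the groups did not overlap, are on the macrophage list as well. C7, of the membrane attack complex, read 7.87, 8.03 and 7.52 against 6.77, 6.98 and 6.62, a difference of -1.02 (adjusted p = 0.0794). F13a1, the clotting factor made by tissue macrophages, was at -0.87 (adjusted p = 0.125), and Cfp (properdin) at -0.65 (adjusted p = 0.188). With vehicle array 1 alone F13a1 was at -0.58 and Cfp at -0.41, and the list median was -0.53.

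Among 21 chemokine, cytokine and adhesion genes the arrays did not overlap for 7, all lower under alfacalcidol (33.3%, against 5.66% of all features). Of the 21, 0 passed (unadjusted: 0 higher, 6 lower). Ccl2, the monocyte attractant, read 2.92, 3.06 and 2.71 with vehicle and 1.01, 1.29 and 1.31 with alfacalcidol, a difference of -1.69 (adjusted p = 0.127). Il1b (interleukin-1 beta) read 0.23, -0.31 and 0.03 against -2.18, -1.44 and -1.51, a difference of -1.69 (adjusted p = 0.112), and sham, from -0.16 to 0.23, was at the vehicle level. Ccl7, another monocyte attractant, was at -1.67 (adjusted p = 0.148), and Cxcl12, the ligand of CXCR4, at -0.64 (adjusted p = 0.21). For Ccl2 and Il1b the difference was at least as large without vehicle arrays 2 and 3, at -1.71 and -1.94. The list median was -0.31 with all arrays.

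Of 20 genes of the interferon response and antigen presentation 0 passed (unadjusted: 0 higher, 1 lower), with a median of -0.01 and Ifit2, an antiviral effector, at -0.67 (adjusted p = 0.273). The smaller leukocyte lists had few measured members, and in each 0 passed (unadjusted: 0 higher, 1 lower). The 4 T cell genes had a median of -0.42, with 3 below 0 and 1 above. Zap70, a T cell receptor kinase, was at -0.71 (adjusted p = 0.264), but Cd3d at 0.34 (adjusted p = 0.282). The 6 neutrophil genes had a median of -0.25, with S100a8, a calprotectin subunit, at -1.57 (adjusted p = 0.267). Against vehicle array 1 alone Ifit2 was at -1.01, Cd3d at 0.17 and S100a8 at -2.98, and the neutrophil median was -0.93.

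Platelet genes had their highest values in sham. Of 7 measured, 0 passed (unadjusted: 0 higher, 3 lower), and their mean was 2.19, 2.41 and 2.09 in sham, 1.43, 0.84 and 1.37 with vehicle and 0.73, 0.70 and 0.56 with alfacalcidol, so the 3 groups did not overlap. Pf4 (platelet factor 4) read 5.40, 4.25 and 5.40 with vehicle and 3.05, 3.48 and 3.25 with alfacalcidol, a difference of -1.76 (adjusted p = 0.064). Treml1, of platelet granules, was at -0.85 (adjusted p = 0.107) and Clec1b (CLEC-2) at -1.12 (adjusted p = 0.242). The list median was -0.20, and -0.50 with vehicle array 1 alone.

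Endothelial genes also had negative differences: 15 of 17 measured were below 0, and the median was -0.40. The arrays were all lower under alfacalcidol for 6 (35.3%, against 5.66% of all features), and 0 passed (unadjusted: 0 higher, 7 lower). Pecam1 (CD31) read 5.67, 6.18 and 5.75 against 5.19, 5.21 and 4.90, a difference of -0.77 (adjusted p = 0.144). Nos3, the endothelial nitric oxide synthase, read 2.42, 1.99 and 1.96 against 1.72, 1.04 and 1.21, a difference of -0.80 (adjusted p = 0.209). Egfl7 was at -0.81 (adjusted p = 0.231) and Sox18, an endothelial transcription factor, at -0.64 (adjusted p = 0.233). This list depended on vehicle array 1, whose mean of 3.56 was above the 3.03 of both other vehicle arrays: the median was -0.75 with that array alone and -0.13 without it, and Egfl7 was at -1.33 with it alone.

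Of 22 vasoactive genes 0 passed (unadjusted: 1 higher, 5 lower) and the median was -0.08. Edn1 (endothelin-1), the vasoconstrictor peptide, read -0.62, 0.11 and -0.23 with vehicle and -1.10, -1.04 and -1.49 with alfacalcidol, a difference of -0.96 (adjusted p = 0.127), with sham at -1.05, -1.52 and -1.07. Agtr1a, an angiotensin II receptor, was at -0.50 (adjusted p = 0.233). With vehicle array 1 alone Edn1 was at -0.59 and the list median at 0.047.

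All 18 contractile smooth muscle genes measured had a difference above 0 (77.1% of all features did), the alfacalcidol arrays were all higher for 9 (50%, against 17.8%), the median was 0.41 against 0.20 for all features, and 0 passed (unadjusted: 5 higher, 0 lower). Smtn (smoothelin) read 6.45, 7.02 and 6.74 against 7.24, 7.50 and 7.40, a difference of 0.64 (adjusted p = 0.208). Lmod1 (leiomodin) was at 0.96 (adjusted p = 0.239), Mylk, the myosin light chain kinase, at 0.52 (adjusted p = 0.243), Acta2 at 0.39 (adjusted p = 0.292) and Myh11 at 0.36 (adjusted p = 0.332). The median was 0.66 with vehicle array 1 alone, where Lmod1 was at 1.52 and Mylk at 0.88, and 0.29 without it, and that array had the lowest list mean of the vehicle arrays, 7.36.

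Basement membrane genes, which smooth muscle and endothelium both make, were similar: the alfacalcidol arrays were all higher for 7 of 12 (58.3%, against 17.8%). The median was 0.39, and 0 passed (unadjusted: 4 higher, 0 lower). Col15a1 was at 0.59 (adjusted p = 0.243), Lamb2, a laminin chain, at 0.51 (adjusted p = 0.247), Col18a1, the precursor of endostatin, at 0.67 (adjusted p = 0.251) and Col4a2 at 0.48 (adjusted p = 0.258). Against vehicle array 1 alone Col15a1 was at 0.97, Lamb2 at 0.87, Col18a1 at 1.40 and the list median at 0.73.

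Of 19 ion channel genes measured 0 passed (unadjusted: 4 higher, 2 lower), with a median of 0.15. Trpv4, a calcium channel of the endothelium, had the smallest p of the list and was at -0.82 (adjusted p = 0.125). Trpc6, a cation channel named after its value was seen as the other lower one, was at -0.87 (adjusted p = 0.243). Kcnmb1, a subunit of the BK channel of smooth muscle, was at 0.82 (adjusted p = 0.213) and Ano1, a calcium-gated chloride channel, at 0.81 (adjusted p = 0.221). With vehicle array 1 alone Ano1 was at 1.29 and the list median at 0.32.

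Of 16 fibroblast genes the alfacalcidol arrays were all lower for 8 (50%, against 5.66% of all features). The median was -0.38, and 0 passed (unadjusted: 0 higher, 7 lower). Dpep1 was at -0.68 (adjusted p = 0.159), Pdgfra, the PDGF receptor that marks adventitial fibroblasts, at -0.54 (adjusted p = 0.213) and Dcn (decorin) at -0.53 (adjusted p = 0.233). Of 21 fibrillar collagen and elastic matrix genes 0 passed (unadjusted: 0 higher, 4 lower), 14 had a difference above 0 and the median was 0.05. Col1a1, Col1a2, Col3a1, Fbln1 and Mfap5 are on both the fibroblast and the matrix list. Fbln2 (fibulin-2) was at -0.71 (adjusted p = 0.127), Loxl2, a collagen crosslinking enzyme, at -0.59 (adjusted p = 0.246) and Col1a1, on arrays from 9.62 to 10.25, at -0.34 (adjusted p = 0.436). Against vehicle array 1 alone Pdgfra was at -0.29 and Loxl2 at -0.95, and the median of the matrix list was 0.33, against -0.14 without that array. The fibroblast median was -0.28 with that array alone and -0.55 without it.

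Of 28 genes of TGF-β, BMP and activin signalling 0 passed (unadjusted: 3 higher, 3 lower). Inhbb, the activin B subunit, read 1.35, 1.21 and 1.05 with vehicle and 0.51, 0.63 and 0.63 with alfacalcidol, a difference of -0.62 (adjusted p = 0.0801). The paricalcitol and VS-105 arrays, from 0.31 to 0.64, were all below the sham arrays, from 0.98 to 1.22. Fst (follistatin), which binds activins, was at -1.01 (adjusted p = 0.125), and Bmp4 at -0.66 (adjusted p = 0.127). The list median was 0.11, and 0.41 with vehicle array 1 alone, where Bmp4 was at -0.41. Pdpn (podoplanin), of the lymphatic list, read 1.52, 1.73 and 1.69 against -0.02, 0.85 and 0.37, a difference of -1.25 (adjusted p = 0.0936), while Flt4, the lymphatic VEGF receptor, was at 0.53 (adjusted p = 0.242).

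**Figure D4:**
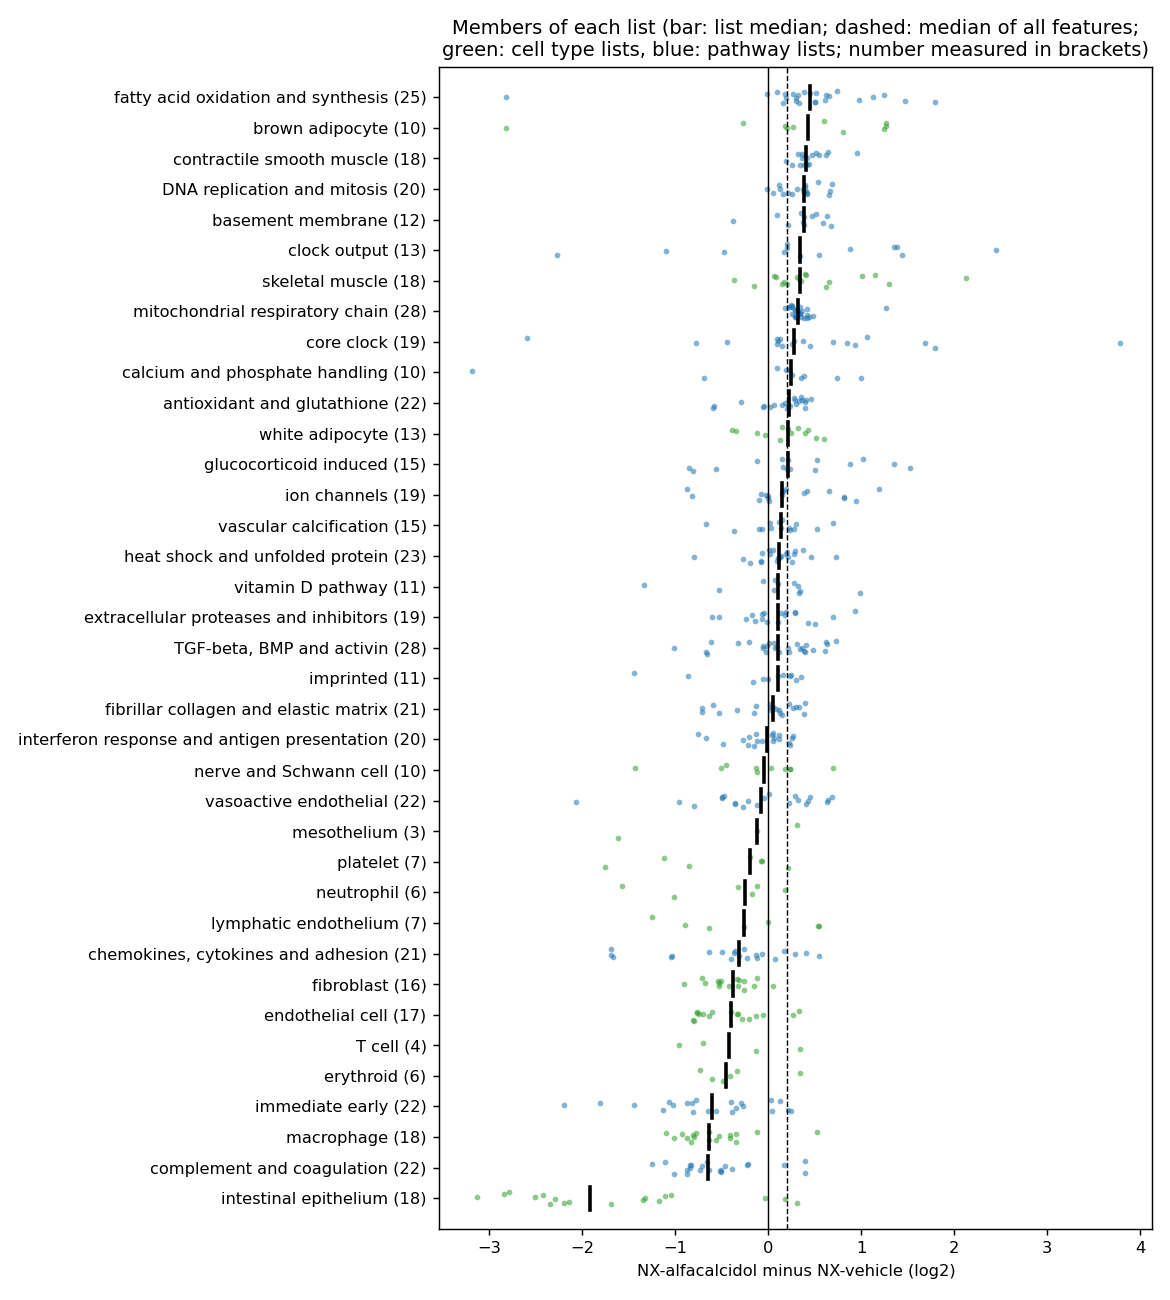
Difference of group means (horizontal axis, log2, alfacalcidol minus vehicle) of each measured member of the gene lists, with the list median as a black bar and the number measured in brackets. Blue lists are pathways and green lists cell types. The median of all features is the dashed line at 0.20. Intestinal epithelium, with a median of -1.92, lies furthest left, followed by complement, macrophage and immediate early genes.

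Metabolic lists turned with the vehicle arrays used. All 28 respiratory chain genes had a difference above 0, with a median of 0.32, but the groups failed to overlap for 3 (10.7%, below the 17.8% of all features), and with vehicle array 1 alone the median was -0.42 and 4 of 28 were above 0. Of 25 fatty acid genes the median was 0.45, and -0.78 with vehicle array 1 alone. Cpt1b, the muscle and brown fat carnitine transferase, read 7.39, 2.18 and 3.76 with vehicle and 6.33, 6.40 and 4.33 with alfacalcidol, in the order of the white adipocyte means of the vehicle arrays, and its difference was -1.70 with vehicle array 1 alone. Of both lists 0 genes passed (unadjusted: 2 higher in the respiratory chain, 1 lower among fatty acid genes).

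In the remaining pathway lists 0 genes passed, and between 1 and 6 of each reached the unadjusted threshold. Of 22 immediate early genes, induced within minutes of a stimulus, the median was -0.61, with Klf4 at -0.80 (adjusted p = 0.139) and non-overlapping arrays for 1 gene (4.55%, near the 5.66% of all features). Of 20 DNA replication and mitosis genes the median was 0.39, with Pcna, the replication clamp, at 0.41 (adjusted p = 0.256). Of 23 heat shock and unfolded protein genes the median was 0.12, with Herpud1, of endoplasmic reticulum quality control, at 0.73 (adjusted p = 0.0957) on non-overlapping arrays. Of 22 antioxidant genes the median was 0.22, with Txn1 (thioredoxin) at 0.35 (adjusted p = 0.21) and Hmox1 (heme oxygenase-1) at -0.59 (adjusted p = 0.239). Of 19 protease and inhibitor genes the median was 0.11, with Timp4 at 0.93 (adjusted p = 0.166). Several of these values depended on vehicle array 1. With that array alone the medians were -0.998 for immediate early, 0.84 for replication, 0.18 for heat shock and 0.28 for protease genes, and without it -0.40, 0.095, 0.067 and -0.12. Timp4 was at 0.51 and Hmox1 at -0.014 with it alone.

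Of the lists of other tissues 0 genes passed (unadjusted: 0 to 2 of each, and 8 lower for intestinal epithelium). Skeletal muscle genes, 18 measured, had a median of 0.34, and Tnnc1, the slow troponin C, was at 2.13 (adjusted p = 0.24), reading 1.05, 5.05 and 4.33 with vehicle, 5.41, 5.71 and 5.69 with alfacalcidol and 0.68 to 1.19 in sham. Brown adipocyte genes, 10 measured, had a median of 0.43, erythroid genes, 6 measured, one of -0.45, and 3 mesothelial genes one of -0.12. Nerve and Schwann cell genes, 10 measured, had a median of -0.04, with Npy (neuropeptide Y) at -1.43 (adjusted p = 0.195) and Uchl1 at 0.70 (adjusted p = 0.244). With vehicle array 1 alone the median was -1.95 for brown adipocyte genes, -1.33 for nerve, -0.39 for mesothelial, 0.58 for skeletal muscle and 0.29 for intestinal genes, and Tnnc1 was at 4.55. Without that array the brown adipocyte and nerve medians were 1.45 and 0.38.

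The study's own comparisons were against sham. The authors' deposited table for alfacalcidol holds 46 features, chosen on these arrays. They differed from sham with vehicle as well as with alfacalcidol, 35 higher in both and 11 lower in both. In this authors' deposited table Dbp was 13.2-fold above sham with alfacalcidol and 2.42-fold with vehicle, and Trpc4, a cation channel, 9.00-fold and 4.67-fold. In the same authors' deposited table Npy was at -10.5 with alfacalcidol and -3.88 with vehicle, and Pf4 at -8.14 and -2.41, as signed fold changes. Against vehicle 0 of the 46 passed in the limma fit and 9 had an unadjusted p under 0.05 (18.2% of all features did), of which 4 were higher. Trpc4 was at 0.95 against vehicle (adjusted p = 0.315), with 0.58, 2.00 and 1.95 on the vehicle arrays and 2.77, 2.20 and 2.40 on the alfacalcidol arrays, and at 1.88 against vehicle array 1 alone.

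A second sheet lists 7 features under alfacalcidol only, again chosen by the authors on these arrays. All 7 had a deposited p-value against sham under 0.01 with vehicle, paricalcitol and VS-105, but not with alfacalcidol. The choice itself therefore favours features whose alfacalcidol level lies nearer to sham than the vehicle level does. Trpm8, the cold-sensing cation channel, read -0.15, -0.41 and -0.17 with vehicle and 1.01, 1.36 and 0.49 with alfacalcidol, a difference of 1.20 (adjusted p = 0.246), and between 1.76 and 2.65 in sham. The alfacalcidol arrays therefore lay between vehicle and sham. The same order held for the means of Xkr6, at 0.73 (adjusted p = 0.158), and Rap1gap2, at 0.60 (adjusted p = 0.273), and in the opposite direction for St6galnac2, a sialyltransferase, at -0.79 (adjusted p = 0.251), Ms4a4a, at -0.82 (adjusted p = 0.333), and Gpnmb, at -0.33 (adjusted p = 0.594). Against vehicle array 1 alone Rap1gap2 was at 0.94, St6galnac2 at -1.19, Ms4a4a at 0.11 and Gpnmb at 0.51, so the last 2 turned.

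The doses of the 3 compounds differed, so their values are set side by side. Against vehicle, 0 features (0.00%) passed for paricalcitol at 0.08 µg/kg, with 2325 at an unadjusted limma p under 0.05, and 716 (4.55%) for VS-105 at 0.01 µg/kg. For Bmal1 the differences from vehicle were -2.59 with alfacalcidol, 0.03 with paricalcitol and -1.75 with VS-105. For Ciart they were 3.78, 1.03 and 2.85, for Per2 1.79, 0.36 and 1.16, and for Wee1 1.38, -0.01 and 0.83, in the same order of compounds. For Mest they were -1.45, -0.29 and -1.30. These comparisons share the vehicle arrays.

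Close to the threshold lay Evi2a at -1.12 (adjusted p = 0.0527), Mall at -1.43 and Apbb1ip at -0.99 (both adjusted p = 0.0549), genes on none of the lists, singled out after their values were seen. At an adjusted p under 0.1 there were 64 features, 18 higher and 46 lower, and at one under 0.2 there were 566.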

How the data were processed

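Aortic RNA was measured on 15 one-colour (Cy3) Agilent arrays, 5 groups of 3, each array a pool from 2 rats, per the labels' protocols. The authors deposited log2 values for 15739 features; the submitters' processing notes name Partek 6.0, and no source used here states the background correction or scaling. The authors' deposited sheets against sham hold a p-value and a signed fold change per feature, a score at or above 1 or at or below -1; group means of the deposited log2 values differed from the listed fold changes by at most 9.4e-05 (log2). Depth does not apply to arrays, whose number limits the precision. Features were named through RefSeq's rat gene table (GRCr8): 9187 matched a symbol, 1555 a synonym, 23 several genes, 23 were control features, and 4951 had no match.

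Group means over all 15 arrays were fitted with limma 3.58.1 in R 4.3.3 (lmFit, eBayes; 10 residual and 2.62 prior degrees of freedom), two-sided, with Benjamini-Hochberg adjustment over all features, after the script had been tested on simulated data. A difference is alfacalcidol minus vehicle (log2). The p-values cover only variation among pools of rats. The members and lists were chosen with earlier results of these data known. Named genes were the called ones, the 10 largest differences each way (unadjusted p under 0.01, groups not overlapping, the higher group above the highest array minimum), up to 4 per list by p with all clock genes allowed, a few fixed vascular genes, and the authors' alfacalcidol-only genes; a few that the rule names are left out of the text. Alternatives changed arrays, scaling, filter, floor, moderation, weights and blocking.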

Additional observations from a re-analysis of the deposited data

Results flagged for a closer look

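For 3 of the 7 features that passed against vehicle, the alfacalcidol group also differed from the paricalcitol group in the same limma fit. The difference, alfacalcidol minus paricalcitol, was -2.62 for Bmal1 (adjusted p = 0.0209), -1.63 for LOC498276 (adjusted p = 0.0298) and 1.40 for Wee1 (adjusted p = 0.0298), and all 3 alfacalcidol arrays lay on one side of all 3 paricalcitol arrays for each. The compounds were given at 0.04 and 0.08 µg/kg, so compound and dose cannot be told apart. Over all features 7 (0.0445%) passed in this comparison. For the other 4, the difference from paricalcitol had an adjusted p of 0.0571 for Per2, 0.0754 for Ciart, 0.0902 for Mest and 0.48 for Ifrd2. Against VS-105, given at 0.01 µg/kg, none of the 7 passed in the same limma fit. The adjusted p was 0.0921 for LOC498276 and ran from 0.201 for Wee1 to 0.68 for Mest among the rest.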

How the results depend on the processing

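Against the 7 features called, 58 were called with the 6 arrays alone (2 higher and 56 lower, 3 of them among the 7), 152 with array medians subtracted, 117 after quantile normalization, 12 among features with a mean above 0, 17 with values raised to a common floor of -2.71, 14 with trended robust moderation, 213 at an unadjusted p under 0.01 with a 2-fold difference, and 0 without moderation, where 2865 had an unadjusted p under 0.05. Array weights gave 10142 calls; their estimation stopped before converging and weighted vehicle array 3 at 18.2, so this count is not read. Leaving out 1 array gave 0 to 35 calls: 18 without sham array 1, 11 without vehicle array 2, 1 without vehicle array 3, 35 without paricalcitol array 3, 4 without alfacalcidol array 1, 0 without alfacalcidol array 2 or 3 (2843 and 1572 at an unadjusted p under 0.05), and 14 without VS-105 array 3. The cause was not tested. With the replicate number as a block 3 were called, all among the 7; the numbers do not pair arrays (correlations of same-numbered deviations 0.01, -0.25 and 0.09). Without control features, an alternative chosen after seeing the data, 7 were called. Array weights left aside, all 7 kept their direction under 25 alternatives (Ciart under 24), with Bmal1 called in 20, Ciart in 20, Per2 in 19, LOC498276 in 18, Wee1 in 16, Mest in 15 and Ifrd2 in 14. Some differences changed sign, among them large ones. Per1 was at -0.015 with medians subtracted. Spp1 was at -0.17 without vehicle array 1, up to 1.46 without other single arrays and 2.41 without vehicle arrays 2 and 3. Gpnmb and Pnpla2 were at 0.14 and -0.022 without vehicle array 2, to -0.75 and 1.39 without other single arrays. Without vehicle arrays 2 and 3, Cdh17 turned from -2.84 to 0.37, Hsd17b2 from -2.79 to 0.022 and Cpt1b from 1.24 to -1.70. Ms4a4a then turned from -0.82 to 0.11, Per1 from 0.15 to -0.18 and Gpnmb from -0.33 to 0.51. Cidea turned from 0.60 to -1.23 and Pnpla2 from 0.52 to -1.22.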
